A study of Mus musculus with 15 samples.

Results

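The 6 genes described here encode the kainate-type glutamate receptor subunits (Grik1, Grik2, Grik3, Grik4 and Grik5) and the delta-type receptor GluD1 (Grid1). They were taken by gene symbol from a table of 26595 genes, with earlier results of these data known. All 6 were among the 17030 genes that had at least 10 normalized counts in at least 3 libraries and were tested. A normalized count is the number of reads of a gene in a library after division by 1 scaling factor for that library.

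Kainate receptors are glutamate-gated ion channels built from several subunits. The products of Grik1, Grik2 and Grik3 can form channels by themselves, whereas those of Grik4 and Grik5 bind glutamate with high affinity and need one of the former to reach the surface as working channels. They act both postsynaptically and on axon terminals, where they modulate transmitter release, and in the striatum they are found on projection neurons and on the cortical fibres that reach them. GluD1 resembles these channels in sequence but is best known as a synaptic organiser, which cerebellins connect to neurexins on the opposite side of the synapse.

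The mice were C57Bl/6 males, 5 months old, and RNA sequencing covered their cerebral cortex and striatum. They were either wild type (WT) or carried the genotype SLC1a4 -/- (KO), that is, they lacked the neutral amino acid transporter ASCT1, and no treatment is listed for any group. The 4 groups were KO cortex (4 libraries, replicates 1 to 4), WT cortex (4, replicates 5 to 8), KO striatum (3, replicates 2 to 4) and WT striatum (4, replicates 5 to 8). Which part of Slc1a4 was deleted, and in which cells, is not stated in the labels. Nor is it stated whether each replicate was another animal, and the p-values therefore cover only the spread between these samples, which may be technical. The comparisons concern the 2 tissues, and the 2 genotypes within each.

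Slc1a4 itself stood at 248.7 to 308 normalized counts in KO cortex against 1494 to 1797 in WT cortex, and at 158 to 344 in KO striatum against 1237 to 1726 in WT striatum. It was called lower in KO in both tissues (log2 fold change -2.61, SE 0.19, in cortex and -2.56, SE 0.20, in striatum, limma adjusted p = 1.2e-05 and 2.3e-05). Libraries held 26791109 to 30276815 counted reads in cortex and 22990233 to 25697792 in striatum. Of 14 markers of striatal projection neurons, 14 were called higher in striatum in each genotype, and 9 of 10 markers of cortical excitatory neurons were called lower. None of these 24 markers was at 0 in a library. The 7 striatum libraries differed in their marker content. The summed striatal markers ranged from 68989 to 141604 normalized counts in KO striatum and from 123534 to 253011 in WT striatum, and the summed cortical excitatory markers from 7764 to 15907 and from 3876 to 8995. Choroid plexus transcripts were high in KO striatum replicate 4 and WT striatum replicate 5, with a mean log2 deviation from the striatum average of 2.68 and 3.17, against -2.07 to -0.53 in the other libraries. Results that rest on these libraries are given below with and without them.

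The members lie on 6 different chromosomes (GRCm38, GENCODE M21), and none shares exon bases with a gene on the opposite strand. On the same strand, Grid1 shares 91 exon bases with Gm27617 and Grik4 shares 59 with Gm24420, neither of which has a value in these data. Grik1 (ENSMUSG00000022935) spans chr16:87895900-88290265 on the minus strand, Grik2 (ENSMUSG00000056073) chr10:49094833-49788766 on the minus strand and Grik3 (ENSMUSG00000001985) chr4:125490700-125714173 on the plus strand. Grik4 (ENSMUSG00000032017) spans chr9:42518135-42944493 and Grik5 (ENSMUSG00000003378) chr7:25009849-25072346, both on the minus strand, and Grid1 (ENSMUSG00000041078) chr14:34820108-35583379 on the plus strand. Grik5 is the compact member, with 62.5 kb from end to end, whereas the others extend over 223 to 763 kb. Their exons add up to 5168 bases in Grik5, 5962 in Grik4 and in Grid1, 6721 in Grik1, 8973 in Grik3 and 13246 in Grik2.

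Upstream sequences are shown for Grik2 and Grik4, because these 2 members differed most between the tissues in WT and did so in opposite directions. They are taken from the RefSeq promoter table (GRCm38.p6), 5′ to 3′ on the minus strand, and were cut to the bases before every annotated GENCODE exon. The Grik2 window lies at chr10:49788767-49789004 and the Grik4 window at chr9:42944494-42944621. Capitals mark the GC box, which was searched as GGGCGG on both strands.
Grik2 upstream: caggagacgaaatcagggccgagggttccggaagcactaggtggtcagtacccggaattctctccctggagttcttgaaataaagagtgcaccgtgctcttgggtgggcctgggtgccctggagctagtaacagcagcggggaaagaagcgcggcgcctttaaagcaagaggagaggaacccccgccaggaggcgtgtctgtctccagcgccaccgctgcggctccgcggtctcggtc
Grik4 upstream: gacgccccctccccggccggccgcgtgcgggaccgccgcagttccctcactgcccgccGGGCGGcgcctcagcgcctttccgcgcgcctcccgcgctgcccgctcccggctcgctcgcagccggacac
The 238 bases before Grik2 held no GC box and 17 CpG sites. The 128 bases before Grik4 held 1 GC box and 23 CpG sites. Among 32851 promoter windows cut to the same length and position, 31.0% held a GC box at 238 bases and 13.8% at 128 bases, and the median number of CpG sites was 5 and 2. A TATA box, searched as TATAAA on both strands, was in neither window, and was in 12.01% and 6.38% of the windows of these lengths. These matches describe letters only.

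The order of the subunits was compared per kilobase of exon (normalized counts per kb). Grik5 was the most abundant member in each of the 4 groups, with 1094 ± 57.8 per kb in WT cortex (SD, n = 4) and 921 ± 112 in WT striatum (SD, n = 4). In WT cortex it lay above 93.9% of the genes tested. Grik3 followed with 336 ± 70.0 per kb in WT cortex and overlapped Grid1 with 282 ± 11.3. Below them came Grik4 with 124 ± 3.42, Grik2 with 92.4 ± 9.06 and Grik1 with 41.4 ± 2.18 per kb (SD, n = 4 each), whose ranges did not overlap. In WT striatum Grik2 and Grik4 changed places by this measure. With the longest transcript as the length, they held 6.30% and 6.12% of the summed Grik levels in WT cortex, with overlapping ranges. Their shares in WT striatum were then 14.2% and 4.16%, so that the change of order depended on the length used. Grid1 with 368 ± 30.9 and Grik3 with 300 ± 40.8 per kb overlapped there, and Grik2 with 190 ± 21.4, Grik4 with 75.8 ± 17.5 and Grik1 with 31.9 ± 12.1 were separate (SD, n = 4 each). The order was the same in KO as in WT in both tissues, except that Grik4 and Grik2 overlapped in KO cortex and that Grik3 and Grik2 overlapped in KO striatum. Grik1, the least abundant, rested on 114 to 351 reads per library and Grik4 on 279 to 1014, while every other member had at least 1169.

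**Figure D1:**
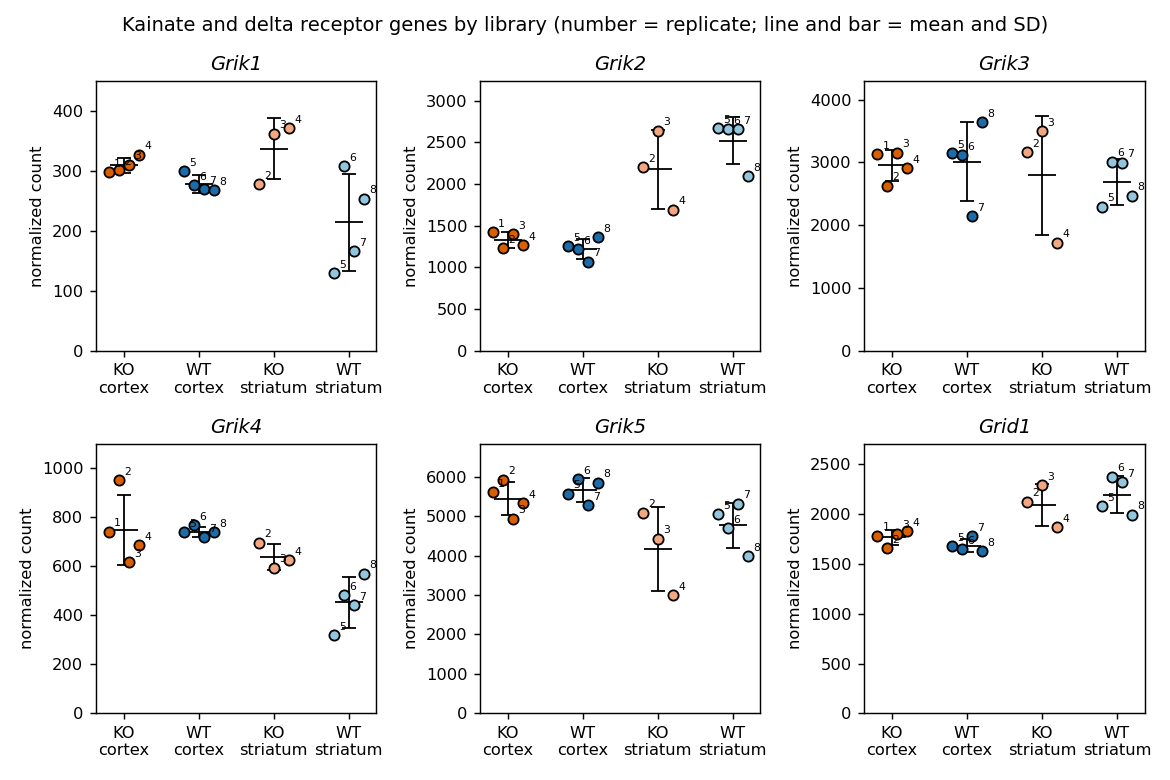
Normalized counts (linear axis from 0) of the 6 genes in each library of the 4 groups. Points are libraries with their replicate number, the horizontal line is the group mean and the bar its SD. Grik2 and Grid1 sit higher in striatum than in cortex in both genotypes, and Grik1 and Grik4 spread widely in WT striatum.

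In WT mice the striatum held 2.05 times the Grik2 level of the cortex on the fitted scale, 1.30 times the Grid1 level and 0.599 times the Grik4 level. Of the 6 members, 3 were called at an adjusted p below 0.05, 2 higher and 1 lower, in a comparison in which 50.5% of all tested genes were called (24.9% higher and 25.7% lower). In 3 members the groups did not overlap, which 47.3% of all tested genes also showed. The median log2 fold change of the members was -0.20, against 0.01 over all genes tested. The share of called members is near this background.

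Grik2 encodes GluK2, the subunit on which most native kainate receptors of the forebrain depend. It measured 1254, 1216, 1069 and 1359 normalized counts in WT cortex and 2665, 2655, 2656 and 2092 in WT striatum (replicates 5, 6, 7 and 8). The lowest striatum library lay far above the highest cortex library, and 3 of the 4 striatum libraries were nearly equal while replicate 8 was lower. Striatum exceeded cortex by 1.04 on the log2 scale (SE 0.12, 95% interval 0.78 to 1.30, limma adjusted p = 7.6e-06). In bulk tissue, a larger share of cells that express a gene and more RNA per cell cannot be told apart.

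Grik4 encodes GluK4, one of the high-affinity subunits, and it was the only member called lower in WT striatum. It measured 738, 766, 717 and 738 normalized counts in WT cortex and 317, 482, 441 and 568 in WT striatum (replicates 5 to 8). The cortex libraries were tightly grouped and the striatum libraries were spread, and the groups did not overlap. The fitted difference was -0.74 on the log2 scale (SE 0.15, 95% interval -1.06 to -0.42, limma adjusted p = 0.00095).

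Grid1, the delta receptor gene, measured 1678, 1647, 1777 and 1624 normalized counts in WT cortex and 2079, 2375, 2321 and 1995 in WT striatum. Its difference was smaller than that of Grik2, but the groups were again separate. The log2 fold change was 0.38 (SE 0.07, 95% interval 0.23 to 0.53, limma adjusted p = 0.00048). Grik2, Grik4 and Grid1 kept these calls in each of the 34 alternative fits, the 15 that left out 1 library among them. Leaving out a KO library could not change these WT fold changes, only the shared estimate of spread.

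The other 3 members were not called in WT. Grik1, which encodes GluK1, measured 268 to 299 normalized counts in WT cortex and 130, 308, 166 and 253 in WT striatum (replicates 5 to 8), so that 1 striatum library lay above the whole cortex range. Its log2 fold change was -0.45 (SE 0.20, limma adjusted p = 0.072), and it was called without WT striatum replicate 6 (-0.66, adjusted p = 0.0074) and without WT striatum replicate 8 (-0.56, adjusted p = 0.040). Grik1 was also called with the trends of transcript length and GC content removed (-0.52, adjusted p = 0.043). The same held without KO striatum replicate 4 and WT striatum replicate 8, the libraries lowest in striatal markers (-0.56, adjusted p = 0.036). Without WT striatum replicate 5, one of the libraries rich in choroid plexus transcripts, the log2 fold change was -0.24 (adjusted p = 0.244). Grik5, which encodes GluK5, measured 5272 to 5933 in WT cortex and 3981 to 5316 in WT striatum (log2 fold change -0.25, SE 0.13, limma adjusted p = 0.119). Of the 34 alternative fits, 4 called it lower. Limma called it without KO striatum replicate 4 (adjusted p = 0.021), a library outside this comparison that enters the shared estimate of spread. It was also called with only the groups compared (0.034), with sample weights (0.036) and without the libraries rich in choroid plexus transcripts (0.017). With the trends of transcript length and GC content removed, the difference was -0.049 (adjusted p = 0.763). Grik3, which encodes GluK3, ranged from 2140 to 3639 in WT cortex and from 2292 to 3011 in WT striatum, within the spread of the cortex libraries (log2 fold change -0.15, SE 0.20, 95% interval -0.57 to 0.27, limma adjusted p = 0.558).

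In KO mice Grik2 and Grid1 were again higher in striatum, and Grik5 in place of Grik4 was called lower. Again 3 of the 6 members were called, 2 higher and 1 lower, where 37.9% of all tested genes were called (18.4% higher and 19.5% lower). In 2 members the groups did not overlap, against 41.5% of all tested genes. Grik2 measured 1422, 1232, 1396 and 1266 normalized counts in KO cortex (replicates 1 to 4) and 2202, 2638 and 1690.4 in KO striatum (replicates 2 to 4). All 3 striatum libraries exceeded all cortex libraries, and replicate 4 was closest to them. The log2 fold change was 0.69 (SE 0.13, 95% interval 0.41 to 0.97, limma adjusted p = 0.00086), and 0.86 without KO striatum replicate 4. This call held in each of the 34 alternative fits, although leaving out a WT library could not change the KO fold change.

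Grid1 measured 1783, 1657, 1803 and 1827 normalized counts in KO cortex and 2124, 2288 and 1867 in KO striatum. The ranges were separate, although KO striatum replicate 4 came close to the highest cortex library. The tissue difference was 0.24 on the log2 scale (SE 0.08, 95% interval 0.08 to 0.40, limma adjusted p = 0.023). The call was lost without KO cortex replicate 2 (0.21, adjusted p = 0.062), without KO striatum replicate 2 (0.23, adjusted p = 0.063) and without KO striatum replicate 3 (0.17, adjusted p = 0.112).

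Grik5 measured 5598, 5925, 4931 and 5325 normalized counts in KO cortex and 5082, 4423 and 2993 in KO striatum. The groups overlapped, and KO striatum replicate 4 was far below every other library. The log2 fold change was -0.42 (SE 0.14, 95% interval -0.72 to -0.11, limma adjusted p = 0.031). Without KO striatum replicate 4 it was -0.20 (adjusted p = 0.169), and the call was also lost without KO cortex replicate 1 (adjusted p = 0.066), replicate 2 (0.073) or replicate 4 (0.052). In all, 13 of the 34 alternative fits lost it. Among them were limma with sample weights (-0.22, adjusted p = 0.137), removal of length and GC trends (-0.29, adjusted p = 0.100), total count scaling (-0.34, adjusted p = 0.069), the groups compared alone (-0.42, adjusted p = 0.089) and the replicate number as a block (-0.40, adjusted p = 0.059). KO striatum replicate 4 had the lowest striatal marker sum of the striatum libraries. Its 8 markers of thalamus, septum and pallidum, which adjoin the striatum, summed to 39967 normalized counts, against 5348 to 23754 in the other striatum libraries, and its 9 interneuron markers to 5490, against 7074 to 9897. The part of tissue content in the Grik5 value was not tested.

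Grik4 was not called between the tissues in KO. It measured 740, 949, 615 and 686 normalized counts in KO cortex and 695, 593 and 623 in KO striatum, with overlapping groups (log2 fold change -0.21, SE 0.16, 95% interval -0.56 to 0.14, limma adjusted p = 0.325). Grik1 differed by 0.11 (SE 0.22, adjusted p = 0.713) and Grik3 by -0.14 (SE 0.21, adjusted p = 0.629) on the log2 scale in the same limma fit. KO striatum replicate 4 held 1719 normalized counts of Grik3, against 3159 and 3495 in the other two KO striatum libraries. Without it the log2 fold change of Grik3 was 0.17 in place of -0.14, and not called.

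**Figure D2:**
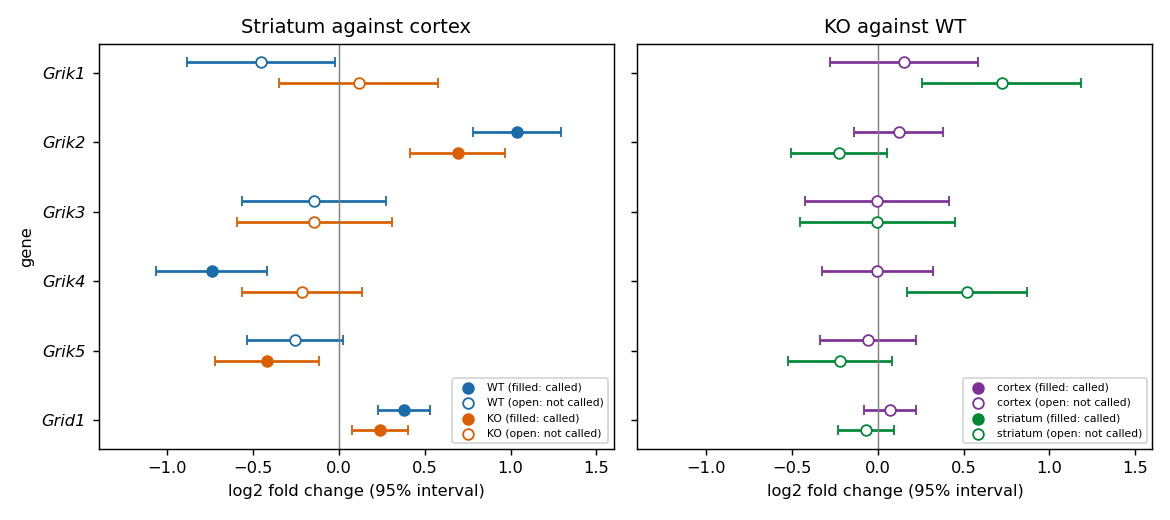
Log2 fold changes of the 6 genes with their 95% intervals, for striatum against cortex in each genotype (left) and KO against WT in each tissue (right). Filled points were called at an adjusted p below 0.05 and open points were not. The filled points are all in the left panel, with Grik2 at 1.04 in WT and 0.69 in KO as the largest.

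The makeup of the kainate receptor transcripts differed between the tissues. Shares were taken of the summed normalized counts per kb of the 5 Grik genes, and carry no test of their own since they restate the levels above. Grik2 made up 5.47 ± 0.21% of the sum in WT cortex and 12.5 ± 0.69% in WT striatum (SD, n = 4 each). In KO it made up 6.08 ± 0.59% in cortex (SD, n = 4) and 11.5 ± 1.31% in striatum (SD, n = 3). The 8 cortex libraries lay between 5.23% and 6.76% and the 7 striatum libraries between 10.02% and 13.4%.

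The high-affinity subunits Grik4 and Grik5 together made up 72.3 ± 2.77% in WT cortex and 65.6 ± 2.32% in WT striatum (SD, n = 4 each). The corresponding shares in KO were 71.2 ± 3.06% (SD, n = 4) and 63.6 ± 3.37% (SD, n = 3). One striatum library, WT replicate 5 with 68.4%, lay above the lowest cortex library with 67.8%. There were 11.9 ± 0.81 Grik5 transcripts per Grik2 transcript by this measure in WT cortex and 4.85 ± 0.24 in WT striatum (SD, n = 4 each). With the longest transcript as the length, these ratios were 10.8 and 4.39. The summed level itself was 1688 ± 133 per kb in WT cortex, 1519 ± 137 in WT striatum, 1654 ± 81.8 in KO cortex (SD, n = 4 each) and 1439 ± 331 in KO striatum (SD, n = 3).

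**Figure D3:**
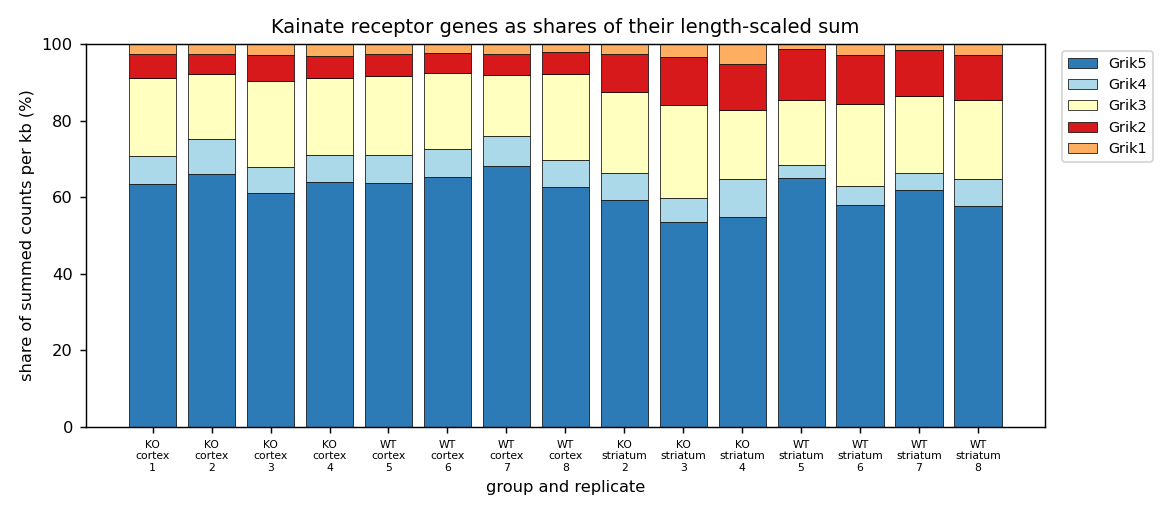
Share of each Grik gene in the summed normalized counts per kb of the 5 kainate receptor genes, in percent, with 1 stacked bar per library. The Grik2 segment is 5.23% to 6.76% high in the cortex libraries and 10.02% to 13.4% high in the striatum libraries, while Grik5 is the largest segment in each bar.

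In the cortex, loss of ASCT1 went with no detectable change of any member. None of the 6 was called by limma, where 0.00587% of all tested genes (1 gene, Slc1a4) were, none had an unadjusted p below 0.05, against 2.51% of all genes, none had groups without overlap, against 4.02%, and edgeR and DESeq2 called none. The largest difference was that of Grik1, at 298, 301, 310 and 327 normalized counts in KO cortex and 299, 276, 270 and 268 in WT cortex. The groups overlapped through WT replicate 5, and the log2 fold change was 0.15 (SE 0.20, 95% interval -0.28 to 0.58, limma adjusted p = 0.9998). Grik2 differed by 0.12 (interval -0.14 to 0.38), Grid1 by 0.07 (-0.08 to 0.22) and Grik5 by -0.06 (-0.34 to 0.22) on the log2 scale. For Grik3 and Grik4 the values were -0.0049 (-0.42 to 0.41) and -0.0037 (-0.33 to 0.32), and their sign changed between alternatives. The intervals leave room for changes of up to 1.17-fold for Grid1, the most precise member, and 1.496-fold for Grik1. Some tissue markers also differed in mean between KO and WT cortex, with 0 called. All 14 striatal projection neuron markers were lower in KO (median log2 fold change -0.38). All 10 choroid plexus markers (median 1.32) and all 5 ependymal markers (1.09) were higher. Of the 10 cortical excitatory markers, 5 were higher and 5 lower. The part of tissue content in the members' values was not tested.

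Across 16929 genes, the difference between KO and WT cortex was related to transcript length (Spearman rho 0.27 over genes, which are not independent replicates). With the trends of length and GC content removed, Grik1 differed by 0.12, Grik2 by 0.0083 and Grid1 by 0.02 on the log2 scale in cortex, and none was called. For KO against WT in striatum, rho was 0.15. With both trends removed there, Grik1 differed by 0.68, Grik4 by 0.43 and Grik2 by -0.33. Grik5 differed by -0.28, Grid1 by -0.15 and Grik3 by -0.15, and no member was called.

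In the striatum, Grik1 and Grik4 had higher mean levels in KO than in WT, but neither passed the test after adjustment. Limma called 0 of the 6 members, where 0.0763% of all tested genes (13) were called, and edgeR and DESeq2 also called none. The number of genes called depended on the tool and the libraries: edgeR called 17 and DESeq2 320 (1.88%), and limma called 517 (3.05%) without KO striatum replicate 4 and 187 without WT striatum replicate 8, against 4 to 21 without any other single library. An unadjusted p below 0.05 was reached by 2 members, Grik1 and Grik4, against 15.3% of all genes. Grik1 measured 278, 362 and 372 normalized counts in KO striatum (replicates 2 to 4) and 130, 308, 166 and 253 in WT striatum (replicates 5 to 8). WT replicate 6 lay within the KO range. KO exceeded WT by 0.72 on the log2 scale (SE 0.22, 95% interval 0.26 to 1.18, limma adjusted p = 0.183).

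Grik4 was the 1 member whose groups did not overlap, which 8.07% of all tested genes also showed (3.96% with KO higher). It measured 695, 593 and 623 normalized counts in KO striatum and 317, 482, 441 and 568 in WT striatum. The lowest KO library exceeded the highest WT library by little. The genotype difference was 0.52 on the log2 scale (SE 0.16, 95% interval 0.17 to 0.87, limma adjusted p = 0.191). Cortex libraries ranged from 615 to 949, so that 2 of the 3 KO striatum values lay within the cortex range and 1 below it.

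None of the other members was called in striatum. Grik2 differed by -0.23 (SE 0.13, 95% interval -0.50 to 0.05, limma adjusted p = 0.425), and 2 of 3 KO libraries lay within the WT range of 2092 to 2665 normalized counts. Grik5 differed by -0.22 (SE 0.14, adjusted p = 0.477) and Grid1 by -0.07 (SE 0.08, adjusted p = 0.704), both in the limma fit on the log2 scale. Grik3 stood at -0.0024 (SE 0.21, 95% interval -0.46 to 0.45), with a wide interval. Without KO striatum replicate 4 the differences of Grik2, Grik5, Grid1 and Grik3 were -0.055, 0.0022, 0.01 and 0.31, none of them called.

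The KO and WT striatum libraries also differed in tissue markers. All 14 striatal projection neuron markers had lower means in KO striatum (median log2 fold change -0.79, 0 called), and 9 of 10 cortical excitatory markers had higher means (median 1.28, 1 called). As a score, the mean log2 deviation of the list from the tissue average, the striatal markers stood at -0.10, -0.07 and -1.19 in KO replicates 2, 3 and 4. In WT replicates 5 to 8 they stood at 0.77, 0.31, 0.59 and -0.30. The cortical excitatory score was 0.95, 0.31 and 0.87 in KO and -1.01, -0.98, -0.09 and -0.05 in WT, with no overlap between the genotypes.

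WT replicates 5 and 7, with the highest striatal scores, held the lowest Grik4 and Grik1. WT replicate 5, with the highest score, held the lowest level of both, and within WT the order of Grik4 (568, 482, 441, 317) was the reverse of the order of the striatal score. Grik1 did not follow that order: WT replicate 6, with a score of 0.31, held 308, above WT replicate 8 with 253 at a score of -0.30. Grik2 went the opposite way to Grik4, at 2665 normalized counts in the library with the highest score and 1690.4 in the one with the lowest. With KO replicate 4 and WT replicate 8 left out, the lowest libraries by striatal markers, Grik4 was called higher in KO (log2 fold change 0.66, limma adjusted p = 0.048) and Grik1 was not (0.75, adjusted p = 0.090). In that fit 862 of 16885 genes (5.11%) were called. With KO replicate 4 and WT replicate 5 left out, the richest in choroid plexus transcripts, the differences were 0.38 (adjusted p = 0.192) and 0.43 (adjusted p = 0.244). The part of tissue content in these values was not tested.

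**Figure D4:**
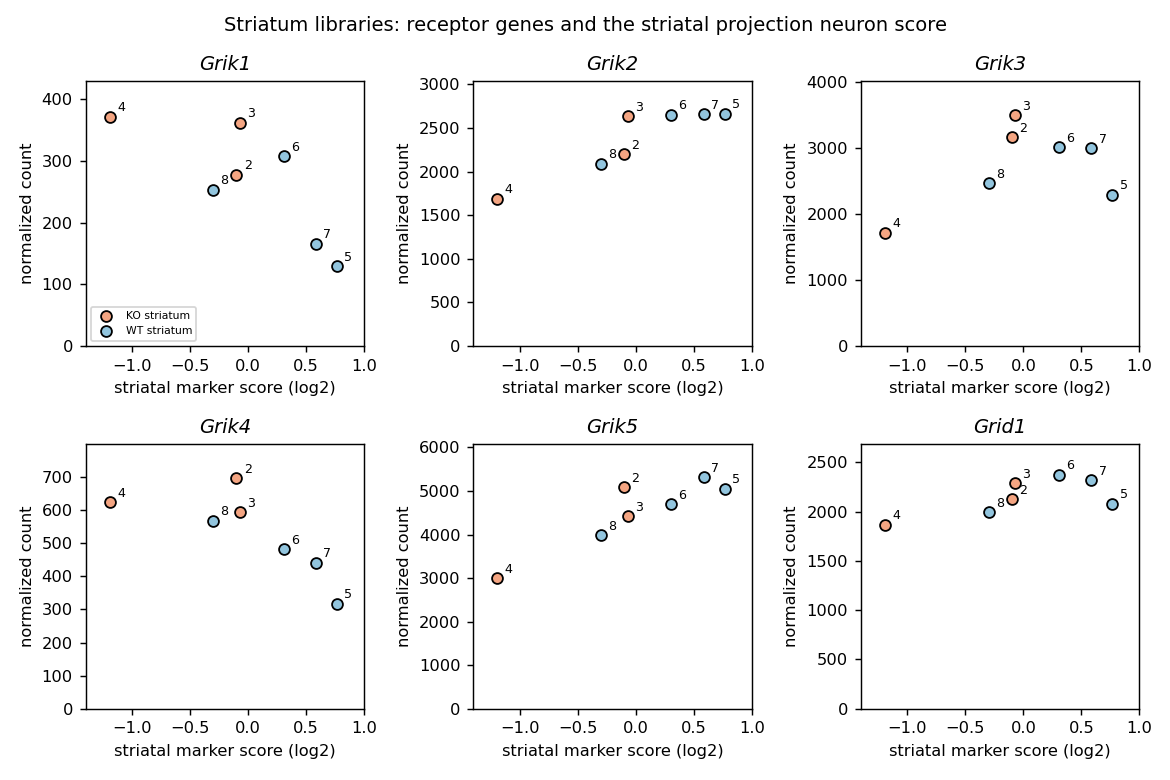
Normalized counts of the 6 genes (vertical axes, from 0) against the score of 14 striatal projection neuron markers (log2 deviation from the striatum average) in the 7 striatum libraries, labelled by replicate. KO replicate 4 has the lowest score, -1.19, and the lowest Grik2, Grik3, Grik5 and Grid1, while WT replicate 5 has the highest score, 0.77, and the lowest Grik1 and Grik4.

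Whether the KO effect differed between striatum and cortex was tested directly. None of the 6 members was called, where 0.00587% of all tested genes were, and edgeR and DESeq2 called none. DESeq2 called 15 genes in all. Grik4 alone had an unadjusted p below 0.05, against 4.9% of all genes. Its effect was 0.53 higher in striatum on the log2 scale (SE 0.22, 95% interval 0.05 to 1.002, limma adjusted p = 0.961). Grik1 differed by 0.57 (SE 0.30, 95% interval -0.06 to 1.20) and Grik2 by -0.35 (SE 0.18, 95% interval -0.73 to 0.03), with the same limma adjusted p of 0.961. The tissue difference of Grik4, called in WT and not in KO, is therefore not shown to depend on genotype.

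Of 18 genes whose products bind, traffic or link kainate and delta receptors at synapses, 11 were called between the tissues in WT, 4 higher and 7 lower in striatum, with a median log2 fold change of -0.20. In KO 10 were called, 4 higher and 6 lower, with a median of -0.15. Of all genes tested, 50.5% were called in WT and 37.9% in KO. Neto2, an auxiliary subunit that alters kainate receptor gating, stood at 2730 ± 135 normalized counts in WT cortex and 5631 ± 1343 in WT striatum (SD, n = 4 each). Like its partner Grik2 it was higher in striatum in WT (log2 fold change 1.0104, SE 0.16, limma adjusted p = 0.00010) and in KO (0.62, adjusted p = 0.011). C1ql3, a secreted protein that recruits kainate receptors to synapses, was lower in striatum, at 2359 ± 160 in WT cortex and 390 ± 236 in WT striatum (SD, n = 4 each; log2 fold change -2.81, limma adjusted p = 1.6e-05). Cbln2, a cerebellin that binds GluD1, was also lower in striatum (-2.12, adjusted p = 4.4e-05), opposite to Grid1. Klhl17, an adaptor for GluK2 degradation, was lower by a smaller amount (-0.56, adjusted p = 5.5e-05). The last 3 were also called lower in KO striatum, at -1.62, -1.09 and -0.23.

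None of these 18 partners was called for genotype in either tissue. In striatum the smallest p belonged to Cbln2 and C1ql3. For Cbln2 the means were 566 ± 258 in KO (SD, n = 3) against 268 ± 121 normalized counts in WT (SD, n = 4), a log2 fold change of 1.07 with a limma adjusted p of 0.183. C1ql3 stood at 855 ± 392 in KO and 390 ± 236 in WT, a log2 fold change of 1.26 with the same adjusted p. Both were called lower in striatum than in cortex in each genotype, and the part of tissue content in their values was not tested. In cortex the smallest p belonged to C1ql2 (log2 fold change 0.87) and Klhl17 (-0.10), with limma adjusted p = 0.9998 for both.

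Kainate receptor transcripts of Grik1 and Grik2 are edited by adenosine deaminases. Whether each of the 3 genes of this family edits them is not known from these data, and editing was not measured. Of the 3, Adarb2 was called higher in WT striatum (log2 fold change 0.85, SE 0.24, limma adjusted p = 0.0083) and Adar lower (-0.24, SE 0.08, adjusted p = 0.021). Adarb2 was also called in KO (0.81, adjusted p = 0.022). Of all genes tested, 50.5% were called in WT and 37.9% in KO. None of the 3 was called for genotype.

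For each member, the genes with the most similar pattern over the 15 libraries were listed by Pearson's r of the log2 values, as a description, since the libraries share tissue and depth. Grik2 was most like Galnt13 (0.985), a glycosyltransferase gene, Ric8b (0.984), which encodes a chaperone of G protein alpha subunits, and Lrch2 (0.982). Grid1 was most like Dpy19l3 (0.977), the adhesion gene Alcam (0.950) and the kinase gene Gsk3b (0.949). All 6 were called higher in striatum in both genotypes, as were 24.9% of all tested genes in WT and 18.4% in KO. Genes picked for likeness to a member over these libraries share its tissue difference by construction, so their calls are no separate result. Grik4 was most like Gdap1l1 (0.954), Ifitm10 (0.949) and the T-type calcium channel gene Cacna1g (0.948), each called lower in striatum in WT and not in KO. This too follows from the pick, and 25.7% of all tested genes were called lower in WT. Grik5 was most like the neuronal adhesion gene Icam5 (0.967), Rprml (0.963) and the calcium channel gene Cacnb1 (0.957). Grik1 was most like Tnfrsf21 (0.913), the kinesin gene Kif21a (0.908) and Bid (0.902), and Grik3 most like the kinase gene Tnik (0.907), Zfp932 (0.892) and Unc79 (0.864).

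Among the members themselves, Grik2 and Grid1 had the closest patterns (Pearson's r 0.93 over the 15 libraries), and Grik2 and Grik4 the most opposed (-0.78). Grik1 and Grik4 varied together (0.70), as did Grik3 and Grik5 (0.62). Grik3 was nearly unrelated to Grik2 (0.04) and Grid1 (0.02). These values mix the tissue difference with the spread within groups and are given without a test.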

How the data were processed

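Per the labels' protocols, libraries were made from 800 ng of total RNA with the NEBNext Ultra RNA kit, and the series' design text gives single-end reads of 75 bp. The build GRCm38 and the tools TopHat2 2.1.1, DESeq2 1.12.4, cutadapt 1.1, HTSeq 0.6.0 and FastQC 0.11.5 are listed, without their roles, in the submitters' processing notes. The strand setting is not given in the sources used here. The deposited values are a normalized signal: read counts which the authors scaled with a single factor for each library. Dividing by the smallest step gave whole reads for 100% of values (within 0.001).

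The members and gene lists were chosen with earlier results of these data known. Limma 3.58.1 (R 4.3.3, variance trend) was fitted to log2(normalized count + 1) with 4 group means over 15 libraries. Genes needed at least 10 normalized counts in at least 3 libraries, which kept 17030, and p-values were adjusted over all of them by the Benjamini-Hochberg method. A gene was called at an adjusted p below 0.05. A fold change on this scale understates low genes. EdgeR 4.0.16 (quasi-likelihood) and DESeq2 1.42.0 were run on the recovered reads. EdgeR called 1 gene for KO against WT in cortex, 17 in striatum, 8640 between tissues in WT and 6523 in KO. Limma called 1, 13, 8601 and 6451, and DESeq2 3, 320, 8818 and 6849. Other alternatives were pseudocounts, filters, scalings, voom, sample weights, robust variances, the groups compared alone, the replicate number as a block, removal of length and GC trends, and libraries left out. EdgeR without WT cortex replicate 8 was added after the data were seen, because the step of that library is close to 1 read.

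Levels between genes were compared per kb of merged exon length (GENCODE M21, which matched 99.0% of genes). RefSeq upstream windows were found for Grik2, Grik3, Grik4 and Grik5. Named genes were the 6 members, the 3 genes most correlated with each (mean normalized count of at least 20, predicted genes left out), and from each related list up to 4 called genes with the smallest p in the WT tissue comparison and up to 2 with the smallest p in each genotype comparison. A gene that this rule takes is not reported here. The test was checked on simulated data. Python 3.11.15 with matplotlib 3.10.9 drew the figures.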

Additional observations from a re-analysis of the deposited data

Results flagged for a closer look

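Grik2 in WT striatum replicate 8, at 2092 normalized counts, lay far from the other three libraries of its group, which held 2655 to 2665. The gap made up 0.983 of the group's range, above Dixon's 95% limit for 4 samples. Of 18 groups of 4 checked, this was the 1 that passed, and chance passes about 1 in 20. The striatal marker score of this library was the lowest of the WT striatum group, -0.30, and its part in the Grik2 value was not tested.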

How the results depend on the processing

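Of 990 alternative values of the members' fold changes, 917 kept their direction and side of the threshold, 18 lost a call, 9 gained one and 46 changed sign, none of these among the 6 called results. Leaving out a library from outside a comparison cannot change its fold change, so these values are not all separate checks. The number of members called for KO against WT in striatum was 1 (Grik4) without the libraries lowest in striatal markers, where 862 of 16885 genes were called. Over all genes that comparison gave 13 calls, 320 in DESeq2, 3 with voom, 25 with total count scaling, 35 with sample weights, 22 without a filter, 344 without the libraries rich in choroid plexus transcripts, 4 to 517 with each library left out in turn, and 0 with only the groups compared (1183 at an unadjusted p below 0.05). In cortex it gave 1, 3 in DESeq2 and 2 with sample weights. The difference of the KO effects gave 1, 15 in DESeq2 and up to 26 with libraries left out. For striatum against cortex in KO it was 1 (Grik2) with only the groups compared and with the replicate block plus length and GC trends removed, and 1 to 3 with each library left out in turn (1 without KO cortex replicate 2). The replicate block alone left 2 members called in KO and 3 in WT, Grik5 losing its call in KO. Numbers were shared across tissues, and not every same-numbered correlation passed 0.1, the level set for pairing: they were 0.088 to 0.142 in KO and 0.0037 to 0.094 in WT, and 5 of 6 KO and 6 of 8 WT libraries correlated best with their own number. No paired analysis was possible for KO against WT because these groups share no number. Slc1a4 in striatum was -2.56 with an adjusted p of 0.093 with only the groups compared. Signs of uncalled values changed as follows, and the cause was not tested. For KO against WT in cortex, Grik3 was 0.072 in edgeR without WT cortex replicate 8, and Grik4 was 0.011 in edgeR, 0.0082 without that library and 0.015 in DESeq2. With libraries left out in turn they ranged from -0.16 to 0.10 and from -0.12 to 0.084. For KO against WT in striatum, Grik3 was 0.047 with total count scaling, 0.053 in edgeR with and without that library, 0.054 in DESeq2, 0.10 with sample weights, 0.28 without the libraries low in striatal markers and 0.24 without those rich in choroid plexus transcripts, where Grik5 was 0.034. Left-out ranges were -0.20 to 0.31 for Grik3, -0.38 to 0.0022 for Grik5 and -0.13 to 0.012 for Grid1. For the difference of the KO effects, Grik3 was -0.0024 with TMM, -0.0059 with upper quartile scaling, -0.018 in edgeR without WT cortex replicate 8, -0.083 with length and GC trends removed and -0.062 with the replicate block added. Grik5 was 0.010 with sample weights and 0.090 without the choroid plexus libraries. Left-out ranges were -0.19 to 0.32 for Grik3 and -0.32 to 0.058 for Grik5. For striatum against cortex in KO, Grik3 was 0.026 with sample weights and 0.17 without the libraries low in striatal markers or rich in choroid plexus transcripts, and ranged from -0.34 to 0.17 with libraries left out.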

Other observations

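Genes of the other glutamate receptor families were also called in both directions between the tissues in WT. In this comparison 50.5% of all tested genes were called, 24.9% higher and 25.7% lower. Among the 4 AMPA receptor genes, Gria3 was called lower in striatum (log2 fold change -0.67, SE 0.07, limma adjusted p = 2.7e-06) and Gria1 higher (0.45, SE 0.13, adjusted p = 0.0095). Of the 7 NMDA receptor genes 3 were lower, led by Grin2a (-1.26, adjusted p = 6.2e-08) with Grin1 (-0.44, adjusted p = 2.8e-05) and Grin2b (-0.34, adjusted p = 0.0018), and Grin3b was higher (0.89, adjusted p = 0.022) at only 7.31 ± 2.36 normalized counts in cortex and 14.1 ± 2.105 in striatum (SD, n = 4 each). Among the metabotropic receptor genes, Grm2 was lower in striatum (-2.90, limma adjusted p = 4.8e-06), while Grm4 (1.36, adjusted p = 1.2e-05) and Grm5 (0.90, adjusted p = 0.00015) were higher.

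None of the genes named here was called for genotype by limma in either tissue. In cortex the smallest p per family belonged to Gria1 (log2 fold change 0.29), Grin2b (0.21) and Grm4 (-0.21), each with a limma adjusted p of 0.9998. In striatum it belonged to Gria2 (-0.21, limma adjusted p = 0.584), Grin3a (0.59, adjusted p = 0.213) and Grm2 (1.13, adjusted p = 0.183).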
